A study of Mus musculus with 6 samples.

Results

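In EpH4 mouse mammary epithelial cells, 113 of 17428 genes stood at least 5 times higher in both libraries made during TGFβ1 exposure than in any library made before it or after its withdrawal. They were chosen on the values themselves: each library was scaled to ppm, the gene's coverage times 1000000 over the total coverage of the library, and a gene was taken when its lower M value was at least 5 times the highest of the 4 E and RE values and at least 1 ppm. The set holds secreted proteases, collagens, integrins, actins, adhesion molecules and receptors, led by Mmp9, Itgb3, Col5a3, Tll1, Cntn2 and Adamts4.

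The libraries came from 3 stages of one cell line, with 2 libraries per stage. E cells were untreated EpH4 cells grown in medium with serum and insulin, M cells were the same cells after 7 days with TGFβ1 in that medium, and RE cells were M cells returned for 4 days to medium without added TGFβ1. Each stage was sequenced from total RNA of whole cultures, so that fewer cells of a kind and less RNA per cell cannot be told apart. As a model it is 1 line with 1 exposure time and 1 time after withdrawal, and the labels mention 3 biological replicas with 2 per stage sequenced. The study's methods describe the sequenced libraries of a stage as biological replicates.

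TGFβ1 is a secreted cytokine that binds a pair of serine/threonine kinase receptors, which phosphorylate Smad2 and Smad3, and the Smads enter the nucleus and act on genes together with other factors such as AP-1. In mammary epithelial cells it drives epithelial-to-mesenchymal transition (EMT), in which cells lose junctions and gain matrix secretion, integrin-based adhesion and actin contractility. Removal of the ligand allows the reverse transition (MET).

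The deposited values were coverage, the number of sequenced bases per gene, and the libraries held between 35782513 and 47928557 reads' worth of 50 bases. A value at or under 3 reads' worth (150 bases, between 0.0626 and 0.0838 ppm) was taken as the floor. Mammary epithelial markers (8 genes in the table) summed to between 1880 and 2440 ppm in E, 1740 and 1910 ppm in M and 1210 and 1270 ppm in RE cells, so that the labelled cell type was present at each stage. Within the sum, genes moved in opposite directions. Krt14 rose from 352 and 240 ppm in E to 580 and 686 ppm in M cells. Cldn7 fell from 147 and 125 ppm to 29.8 and 29.7 ppm, and Cldn3 and Cldn4 fell as well. Fibroblast markers (6 genes) summed to between 152 and 178 ppm in E, 898 and 990 ppm in M and 1100 and 1270 ppm in RE cells. Pdgfrb and Col1a1 made up most of the sum in M cells. Thy1 was at the floor in all 6 libraries, and Dcn was at the floor in M cells, with 3.87 and 1.80 ppm in RE cells. The part of fibroblasts in the results was not tested.

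Because the members share a response, the stretches before the transcription start of a few were read from RefSeq (GRCm38.p6), for which a window from 250 bases before to 50 bases after the start was at hand for 79 of the 113 members. The AP-1 motif TGACTCA, on either strand, was in the windows of 9 of these 79 members (11.4%), against 5.22% of the 12406 genes with a window. These were Chrna1, Fcrlb, Hmcn2, Ldb3, Mmp10, Mmp13, Notch4, Tmprss11f and Xirp2. The CArG box, the element read by serum response factor in actin genes, was in the windows of 3 members (3.80%), Acta1, Glipr2 and Ldb3, against 1.72% of all genes. The window of Acta2, another actin member, held neither of these motifs as searched. The 250 bases before the start of 5 members are shown with the AP-1 motif and the CArG box in capitals. They were picked because a protease pair carries the first motif, an actin and Glipr2 the second, and Ldb3 both. Mmp10 (chr9:7502092-7502341, plus strand) and Mmp13 (chr9:7272264-7272513, plus strand) have the motif 56 and 28 bases before the start. Acta1 (chr8:123894776-123895025, minus strand) and Glipr2 (chr4:43957452-43957701, plus strand) have the CArG box 63 and 74 bases before it. Ldb3 (chr14:34588682-34588931, minus strand) has the AP-1 motif 88 bases and the CArG box 25 bases before the start shown. Another RefSeq start of Ldb3 (chr14:34588608-34588857) has the same motifs 162 and 99 bases before it.
Mmp10: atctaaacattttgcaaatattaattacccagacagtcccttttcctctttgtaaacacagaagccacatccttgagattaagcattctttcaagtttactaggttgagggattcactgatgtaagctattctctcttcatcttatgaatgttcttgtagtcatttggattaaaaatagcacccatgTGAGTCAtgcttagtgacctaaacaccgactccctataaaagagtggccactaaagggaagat
Mmp13: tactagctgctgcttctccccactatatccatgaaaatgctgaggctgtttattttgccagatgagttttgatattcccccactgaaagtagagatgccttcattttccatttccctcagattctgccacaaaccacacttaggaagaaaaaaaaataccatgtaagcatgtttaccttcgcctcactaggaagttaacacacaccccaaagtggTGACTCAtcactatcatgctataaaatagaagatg
Acta1: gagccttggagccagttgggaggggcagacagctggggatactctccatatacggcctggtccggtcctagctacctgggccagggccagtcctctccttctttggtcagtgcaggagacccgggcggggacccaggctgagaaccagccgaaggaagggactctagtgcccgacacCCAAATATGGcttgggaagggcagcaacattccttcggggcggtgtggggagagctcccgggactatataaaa
Glipr2: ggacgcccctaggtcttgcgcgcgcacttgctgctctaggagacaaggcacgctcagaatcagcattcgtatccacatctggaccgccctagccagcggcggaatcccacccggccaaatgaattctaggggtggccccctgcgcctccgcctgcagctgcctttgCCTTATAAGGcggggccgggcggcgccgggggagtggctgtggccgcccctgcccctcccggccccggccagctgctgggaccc
Ldb3: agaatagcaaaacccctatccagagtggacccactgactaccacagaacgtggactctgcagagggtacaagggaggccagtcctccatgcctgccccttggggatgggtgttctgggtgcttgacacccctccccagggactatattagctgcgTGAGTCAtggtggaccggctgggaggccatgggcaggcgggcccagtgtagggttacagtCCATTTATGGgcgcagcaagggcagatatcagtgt

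Other motifs were searched on both strands of the same windows. Over the 96 windows of the members and all 15669 windows, the TEAD motif GGAATG was in 18.8% and 12.9%, the E-box CACCTG in 24.0% and 19.6%, and the RUNX motif TGTGGT in 17.7% and 13.3%. The Smad-binding CAGA box AGCCAGACA was in 0 of the members' windows and 0.306% of all, and the palindromic Smad box GTCTAGAC in 0 and 0.268%. None of these motifs contains another. These are matches of letters in short windows, not measured binding.

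The members ranged widely in size of change. The lower M library stood at a median of 11.5 times the highest E or RE library, with a range from 5.03 for Hmcn2 to 385 for Mmp9. 62 members reached a factor of 10, 8 reached 50 and 2 reached 100. In 14 members the highest E or RE library was at its floor, so that the factor is a lower bound. In 13 of them all 4 E and RE libraries were at the floor. The lower M value ran from 1.01 ppm (Havcr2) to 11350 ppm (Tnc), with a median of 8.45 ppm, and 49 members lay under 5 ppm. The 2 M libraries of a member differed by a median of 1.11-fold, and in 1 member, C1qtnf3, by more than 2-fold. Together the members took 0.0583% and 0.0669% of the coverage in E, 1.87% and 1.97% in M and 0.085% and 0.0905% in RE cells. Tnc alone made up 60.7% and 61.7% of the members' coverage in M cells, and without it the members' share there was 0.736% and 0.756%.

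**Figure D1:**
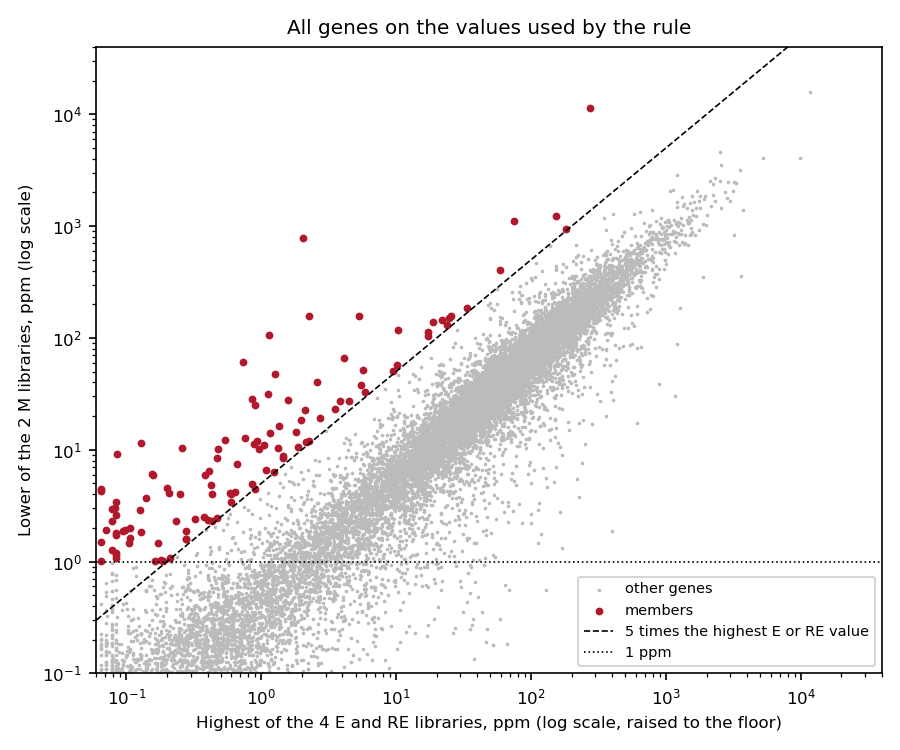
Lower of the 2 M libraries against the highest of the 4 E and RE libraries for the genes with at least 0.1 ppm in M, both in ppm on log axes. Each point is a gene, and the 113 members in red lie above the dashed line of 5 times and the dotted line of 1 ppm, with Tnc at the top right and Mmp9 as the point near 787 ppm.

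The secreted matrix-degrading enzymes held the member with the largest factor. Mmp9, the gelatinase that cleaves denatured collagen and type IV collagen, had 1.58 and 1.87 ppm in E, 841 and 787 ppm in M and 1.28 and 2.04 ppm in RE cells. The RE libraries enclosed the E libraries, and both M libraries lay 385-fold or more above all of them. Tll1, a tolloid protease that processes procollagens, had 12.1 and 11.4 ppm in M cells and was at or under 0.130 ppm in the other 4 libraries. Adamts4, an aggrecanase, had 0.729 and 1.33 ppm in E, 166 and 157 ppm in M and 2.20 and 2.25 ppm in RE cells, the RE values being above the E values. Adamts8 had 0.266 and 0.360 ppm in E, 7.35 and 6.47 ppm in M and 0.413 and 0.164 ppm in RE cells. Mmp13, an interstitial collagenase, stood at 15.7 and 11.2 ppm in M cells and between 0.402 and 0.883 ppm elsewhere. Mmp10, stromelysin 2, stood at 16.9 and 14.3 ppm in M cells and set itself apart outside M, with 1.83 and 1.33 ppm in E but 0.172 and 0.249 ppm in RE cells.

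The rest of this protease list was tested. The rule set the members aside by the same values, so genes outside the set, here and in later lists, are those that failed it. The shares of all tested genes given beside them include the members. Calls required an adjusted p below 0.01 and a log2 fold change beyond 1 in either direction, and the fold changes here are on TMM-normalized coverage. In E vs. M, 8.41% of all 13893 tested genes were called higher and 8.35% lower, with a median log2 fold change of 0.00. Of the 55 tested proteases outside the set, 16 rose and 7 fell in M cells, with a median of 0.41. Of these 16, 9 fell again in M vs. RE. Over all lists together, 123 of the 263 genes outside the set that rose fell again, which is the share to set beside such counts here and below. Adamts16 rose from 0.0518 and 0.0704 ppm to 14.8 and 18.3 ppm, and 6.13 and 7.23 ppm remained in RE cells. Adamts12 rose from the floor to 4.14 and 4.91 ppm, and its 4.06 and 2.43 ppm in RE cells gave no call in M vs. RE (log2 fold change of -0.71 ± 0.32 (SE), adjusted p of 0.129, limma). Both thus remained outside the set by their RE values. Among genes picked as relatives of members after their values were seen, Timp1, an inhibitor of Mmp9, rose by 2.10 ± 0.13 on the log2 scale (adjusted p of 4.37e-05, limma). Mmp14 and Mmp3, from the same enzyme family as Mmp9, were not called. Mmp2, of that family too, had 1.18 and 1.19 ppm in E, 1.32 and 1.29 ppm in M and 5.34 and 4.67 ppm in RE cells. It was called higher in RE than in E (log2 fold change of 2.06 ± 0.22, adjusted p of 0.00114, limma) and than in M cells (1.66 ± 0.22, adjusted p of 0.0014).

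Of the 31 tested protease inhibitors outside the set, 7 rose and 7 fell in M cells. Serpina3h rose from 0.596 and 0.673 to 11.4 and 15.2 ppm and had 4.58 and 3.78 ppm in RE cells. Serpina9 fell from 11.02 and 4.06 ppm to 0.0626 and 0.132 ppm and rose again to 3.92 and 3.28 ppm. The first was thus still above its E level after withdrawal, whereas the second had returned toward it. Plau, the urokinase gene, had 71.3 and 83.9 ppm in E, 254 and 243 ppm in M and 34.8 and 42.4 ppm in RE cells, so that it was highest in M and lowest in RE cells.

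Matrix proteins were the largest listed class among the members, with 10 of 101 tested genes. Tenascin C (Tnc), a matricellular protein of wounds and tumour stroma, had 65.6 and 123 ppm in E, 11350 and 12180 ppm in M and 228 and 272 ppm in RE cells. It also had the highest coverage per kilobase of transcript in M cells among the members, 1656 ppm per kb, against 686 for Clu, 256 for Mmp9 and 222 for Itga5. Col5a3, a type V collagen chain, went from 0.259 and 0.448 ppm in E to 107 and 108 ppm in M and back to 1.02 and 1.14 ppm in RE cells. Col27a1, a fibrillar collagen chain, had 0.384 and 0.112 ppm, then 47.7 and 59.8 ppm, then 1.27 and 1.26 ppm. In these 3 genes both RE libraries lay above both E libraries. Crispld2 had 6.44 and 5.89 ppm in M cells and at most 0.158 ppm elsewhere, with E and RE overlapping.

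Chains of type IV collagen, the network former of basement membranes, differed in direction, and Col4a1 and Col4a2, at or under 0.231 ppm in all 6 libraries, did not reach the test. Col4a3 had 0.510 and 1.20 ppm in E, 27.5 and 37.6 ppm in M and 3.84 and 2.74 ppm in RE cells, and its head-to-head neighbour Col4a4 had 1.39 and 2.87, 38.2 and 52.7, and 5.50 and 4.45 ppm. Col4a5, the chain that assembles with them, fell from 215 and 238 ppm in E to 68.9 and 72.0 ppm in M cells (log2 fold change of -1.38 ± 0.13, adjusted p of 0.000249, limma) and stood at 305 and 293 ppm in RE cells. Col4a6 fell from 2.06 and 2.24 to 0.313 and 0.473 ppm. The RefSeq models of Col4a3 and Col4a4 overlap, and the sources used here do not say whether strand was kept, so reads near their shared start could be counted for either.

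Col7a1, the anchoring fibril collagen, had 22.1 and 23.8 ppm in E, 130 and 161 ppm in M and 5.86 and 7.09 ppm in RE cells, so that RE cells lay below E cells. The remaining members were Wisp1, a CCN family protein, Tgfbi and Col5a1. Wisp1 stood at 117 ppm in both M libraries, against 2.48 and 6.41 ppm in E and 10.4 and 10.1 ppm in RE cells. Of the 91 tested matrix genes outside the set, 37 rose and 16 fell in M cells, with a median log2 fold change of 0.65, and 16 of the 37 fell again in RE cells. Fmod rose from the floor to 2.88 and 6.72 ppm and had 0.519 and 0.801 ppm in RE cells. Adamtsl3 rose from 2.38 and 5.11 to 87.5 and 107 ppm and kept 70.2 and 61.4 ppm in RE cells. Fn1, the fibronectin gene, had 2661 and 5665 ppm in E, 15850 and 16310 ppm in M and 11740 and 10830 ppm in RE cells, and was not called in M vs. RE. Ctgf, a CCN relative of Wisp1, rose by 2.13 ± 0.16 (log2) in M cells and fell below E in RE cells, with 169 and 216 ppm in E and 66.2 and 65.0 ppm in RE cells.

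Of the enzymes that crosslink matrix or make hyaluronan, 2 of 19 tested were members. Has2, a hyaluronan synthase, had 7.00 and 5.81 ppm in E, 167 and 150 ppm in M and 19.6 and 24.6 ppm in RE cells. Loxl2, a lysyl oxidase, had 2.00 and 2.02 ppm in M cells and at most 0.107 ppm in the others. Of the 17 others, 6 rose and 4 fell. Loxl3 rose from 7.16 and 7.23 to 79.6 and 72.1 ppm and remained at 63.0 and 61.6 ppm in RE cells, whereas Tgm5, a transglutaminase, fell from 6.79 and 3.81 ppm to the floor and returned to 10.7 and 5.57 ppm. Has1 and Has3 were not called in any of the 3 comparisons, and Cd44, a hyaluronan receptor, rose by 1.93 ± 0.25 (log2) in M and fell by 1.81 in RE cells.

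Integrins, the receptors that link matrix to actin, gave 3 members of 19 tested. Itgb3, the β3 chain of the vitronectin receptor, had 9.13 and 10.7 ppm in M cells against 0.0259 and 0 ppm in E and 0.0855 and 0.0699 ppm in RE cells. Its level outside M was thus within a few reads of none. Itga2, the collagen-binding chain, had 1.89 and 5.31 ppm in E, 158 and 194 ppm in M and 2.84 and 3.18 ppm in RE cells, where both RE values lay between the E values. Itga5, the fibronectin-binding chain, was at the edge of the rule, with 96.1 and 114 ppm in E, 942 and 1018 ppm in M and 183 and 176 ppm in RE cells. Of the other 16 integrins, 5 rose and 2 fell in M cells. Itgav, the α partner of Itgb3, rose from 55.3 and 94.3 to 531 and 552 ppm and had 215 and 202 ppm in RE cells. Itga2b, the other α partner of Itgb3, was not called. Itga11 rose from 0.923 and 1.68 to 5.18 and 7.40 ppm and returned to 0.587 and 1.10 ppm. Itgb1, the β partner of Itga2 and Itga5, rose by 1.55 ± 0.14 and then fell by 1.13 on the log2 scale.

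Contractile and actin-binding genes gave 6 members of 64 tested. Acta2, the smooth muscle α-actin of myofibroblasts, had 0.282 and 0.730 ppm in E, 65.8 and 75.2 ppm in M and 4.13 and 3.95 ppm in RE cells. Acta1, skeletal α-actin, had 11.3 and 11.1 ppm in M cells, 0.594 and 0.683 ppm in E and 1.05 and 0.873 ppm in RE cells. Actg2, smooth muscle γ-actin, had 4.17 and 5.03 ppm in M cells, 0 and 0.0838 ppm in E and 0.636 and 0.543 ppm in RE cells. In these 3 actins the RE values lay above the E values. Actin genes are near-identical copies, and the authors kept uniquely mapped reads, so the split of reads among them is uncertain. Actb, the main cytoplasmic actin, had 2297 and 2155 ppm in E and 2703 and 2882 ppm in M cells and was not called. Ldb3, a Z-disc protein, had 4.95 and 6.15 ppm in M cells and between 0.706 and 0.859 ppm elsewhere. The other members of the list were Xirp2 and Lcp1.

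Smooth muscle markers (5 genes, Acta2 among them) summed to between 4.00 and 5.18 ppm in E, 70.6 and 81.0 ppm in M and 10.1 and 10.4 ppm in RE cells, so that Acta2 made up most of the sum in M cells, and the part of such cells in the actin values was not tested. Tagln, another gene of that list, rose from 2.34 and 2.55 to 4.00 and 5.15 ppm, and Cnn1, Myh11 and Des were not called in E vs. M. Cnn1 was highest after withdrawal, with 0.136 and 0.222 ppm in E, 0.175 and 0.155 ppm in M and 1.69 and 1.84 ppm in RE cells. It was called higher in RE than in E (log2 fold change of 2.79 ± 0.32, adjusted p of 0.00146, limma) and than in M cells (2.66 ± 0.32, adjusted p of 0.000939). Des had 0.693 and 0.933 ppm in E and 0.270 and 0.154 ppm in M cells. Of the 58 contractile genes outside the set, 25 rose and 2 fell in M cells, with a median log2 fold change of 1.13, and 13 of the 25 fell again in RE cells. Myl9, a myosin light chain, fell just short of the rule with 4.38 and 6.40 ppm in M and 0.889 and 0.484 ppm in RE cells. Vim, vimentin, rose from 7.29 and 3.39 to 75.3 and 64.4 ppm and had 22.0 and 25.1 ppm in RE cells.

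**Figure D2:**
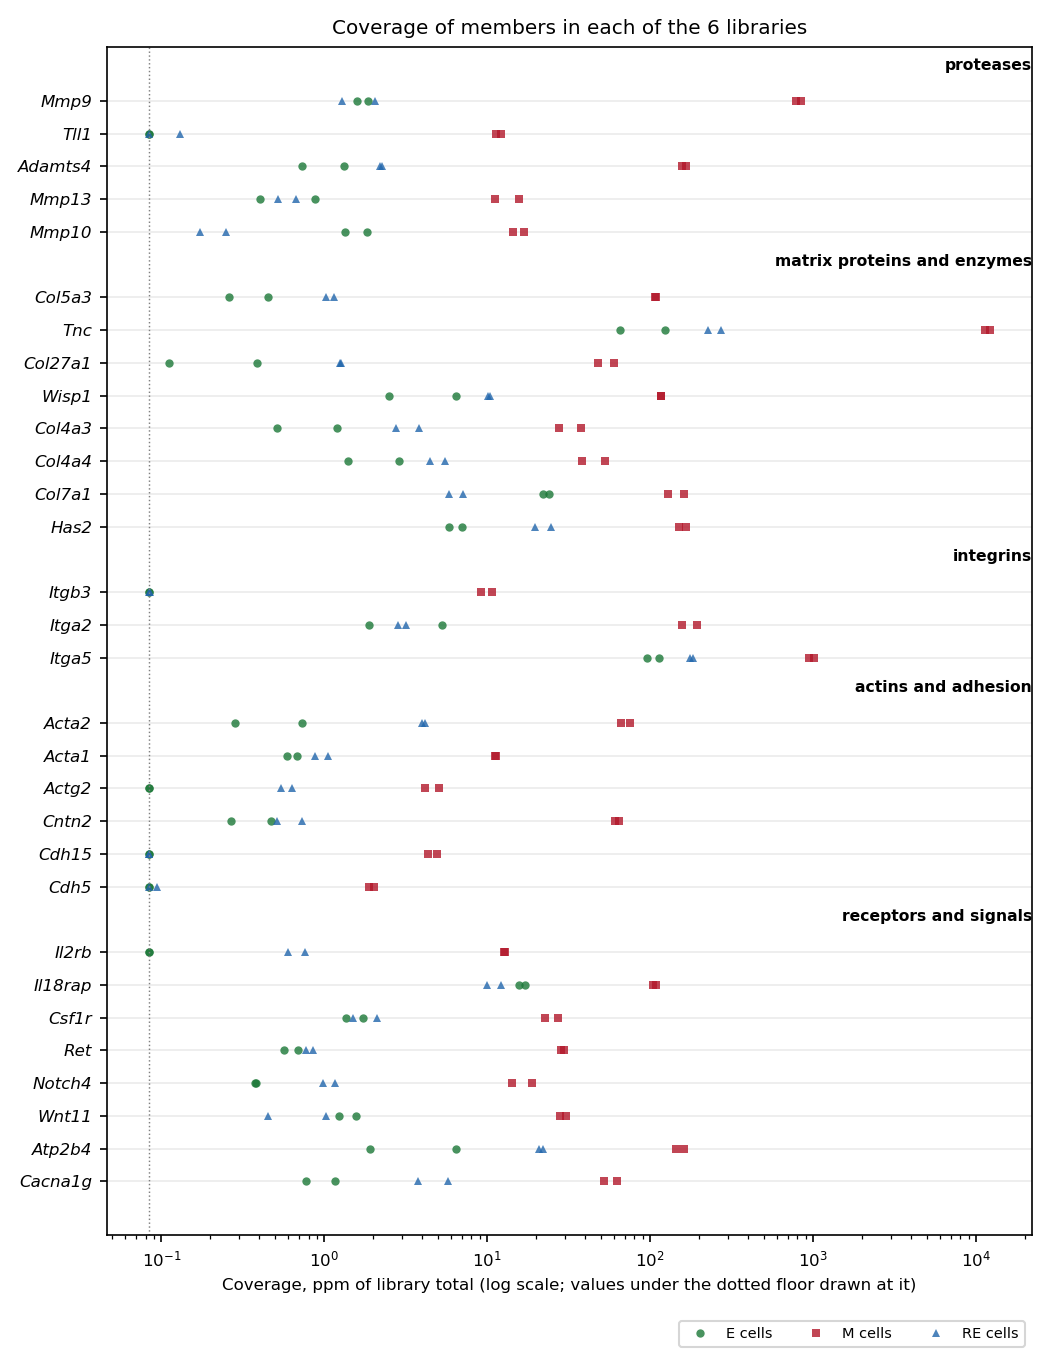
Coverage in ppm of the library total (log axis) in each of the 6 libraries for 30 members grouped by role. Circles are E, squares M and triangles RE libraries, and values under the dotted floor are drawn at it. The M squares stand apart to the right in every row, while the RE triangles lie above the E circles in genes such as Acta2 and Atp2b4 and below them in Mmp10 and Col7a1.

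Guidance and adhesion molecules gave 5 members of 119 tested. Contactin 2 (Cntn2), an axonal adhesion molecule, had 0.266 and 0.469 ppm in E, 60.5 and 64.8 ppm in M and 0.512 and 0.728 ppm in RE cells. Cdh15, muscle cadherin, had 4.31 and 4.94 ppm in M cells and was at the floor in the other 4 libraries, which makes M at least 51.4-fold higher (against the highest floor of these 4 libraries). Sema7a, a membrane-anchored semaphorin, had 12.1 and 10.4 ppm in M cells and between 0.0559 and 0.259 ppm elsewhere. Cdh5, the cadherin of endothelial junctions, had 2.03 and 1.89 ppm in M cells and at most 0.0939 ppm elsewhere. Endothelial markers (6 genes, Cdh5 among them) summed to between 2.36 and 2.55 ppm in M cells and 0.397 and 0.790 ppm elsewhere, and Kdr and Tie1 were at the floor in all 6 libraries. Cdh5, a member chosen for being high in M cells, made up most of the sum there, and the part of endothelial cells was not tested. Plxna4, a plexin, had 12.03 and 16.63 ppm in M cells. Of the other 114 genes of the list, 31 rose and 10 fell in M cells. Flrt1 fell from 3.42 and 10.9 ppm to the floor and had 0.286 and 0.595 ppm in RE cells, and Ephb6 fell from 71.7 and 46.7 to 2.88 and 4.92 ppm and returned to 112 and 98.1 ppm. Tnni3k, a kinase known from heart muscle and a member outside the lists, had 3.76 and 3.41 ppm in M cells and at most 0.0838 ppm elsewhere.

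A further run of members are receptors or signalling proteins best known from leukocytes. They were picked from the 62 members outside the lists after their values were seen, as were all members named here beyond those of highest factor in each list or smallest adjusted p in E vs. RE. Il2rb, the β chain of the receptors for interleukin 2 and interleukin 15, had 12.8 and 12.7 ppm in M, 0 and 0.0559 ppm in E and 0.602 and 0.763 ppm in RE cells. Il2rg, the common γ chain, had 1.59 and 1.97 ppm in M cells and at most 0.277 ppm elsewhere. Il18rap, the accessory chain of the interleukin 18 receptor, had 15.7 and 17.2 ppm in E, 105 and 109 ppm in M and 10.02 and 12.11 ppm in RE cells. Its partner chain Il18r1, outside the set, rose by 2.03 ± 0.12 in M cells and fell by 3.06 in RE cells (log2), ending 1.03 ± 0.12 below E (adjusted p of 0.00178, limma). Csf1r, the receptor for Csf1 and interleukin 34, had 22.5 and 27.2 ppm in M cells and between 1.37 and 2.12 ppm elsewhere. Csf1 was not called in any comparison, and Il34 fell from 40.2 and 40.8 to 11.6 and 11.8 ppm in M cells. Il15 and Il18 were not called in any comparison.

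Fc receptor genes Fcgr2b (4.61 and 4.13 ppm in M cells) and Fcrlb (5.96 and 6.14 ppm), the lectins Siglecg (36.7 and 27.5 ppm) and Clec12a (6.63 and 7.09 ppm), and Havcr2 (1.01 and 1.05 ppm) belong to the same group. Leukocyte markers (9 genes, Csf1r among them) summed to between 8.04 and 11.7 ppm in E, 30.3 and 35.1 ppm in M and 8.84 and 8.87 ppm in RE cells. Csf1r, a member chosen for being high in M cells, made up most of the sum there, with 22.5 and 27.2 ppm. The part of leukocytes in the results was not tested. Ptprc and Cd3e, which define leukocytes and T cells, were at the floor in all 6 libraries. Apart from Csf1r, Fcer1g was the one leukocyte marker called higher in M cells, with 1.20 and 1.16 ppm against 0.148 and 0.149 ppm in E cells.

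Among receptors for developmental signals, Ret, the receptor tyrosine kinase for GDNF family ligands, had 0.567 and 0.690 ppm in E, 28.3 and 29.8 ppm in M and 0.847 and 0.773 ppm in RE cells. Of its co-receptors in the table, Gfra1 was at the floor in all 6 libraries, Gfra2 stood at 0.0388 and 0.0441 ppm in M cells, and Gfra4 was at the floor in both M libraries, with at most 0.295 ppm elsewhere. Notch4 had 0.373 and 0.381 ppm in E, 14.2 and 18.8 ppm in M and 0.984 and 1.17 ppm in RE cells. Jag1, a Notch ligand, was the gene nearest to the rule from outside, with 15.5 and 32.1, 276 and 332, and 55.6 and 48.2 ppm.

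Growth factor ligands gave 2 members of 54 tested. Wnt11, a ligand of non-canonical Wnt signalling, had 1.22 and 1.57 ppm in E, 27.9 and 30.6 ppm in M and 0.449 and 1.02 ppm in RE cells. Hgf, the ligand of Met, had 1.14 and 1.20 ppm in M cells and was at the floor in the other 4 libraries. Of the other 52 ligands, 11 rose and 7 fell. Igf1 rose from 0.340 and 0.373 to 14.7 and 16.1 ppm and had 2.71 and 3.04 ppm in RE cells, and Ptn rose by 3.26 ± 0.35 (log2). Outside the list, Rspo1, an R-spondin, had 1.93 and 2.11 ppm in M cells and at most 0.0984 ppm elsewhere, and Pthlh, which encodes parathyroid hormone-related protein, had 11.8 and 12.9 ppm in M cells and between 0.558 and 2.14 ppm elsewhere.

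The TGFβ, BMP and activin pathway itself held 1 member of 54 tested. Acvrl1, a type I receptor, had 1.14 and 1.07 ppm in M cells, and its highest value elsewhere was 0.211 ppm, in RE2. Eng, its co-receptor, rose by 1.78 ± 0.12 (log2) in M cells, with 128 and 135 ppm in E, 358 and 378 ppm in M and 229 and 241 ppm in RE cells. Tgfbr1 was not called in any comparison, and Tgfbr2 was not called in E vs. M. Of the 53 pathway genes outside the set, 10 rose and 7 fell in M cells. The largest changes were falls of inhibitors and ligands. Fst, follistatin, fell from 33.8 and 23.1 ppm to 0.438 and 0.648 ppm and returned to 25.9 and 24.6 ppm, and Bmp4 fell from 52.0 and 43.4 to 1.52 and 1.14 ppm and returned to 47.9 and 42.4 ppm.

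Ion channels and solute carriers gave 9 members of 342 tested. Cacna2d2, an auxiliary calcium channel subunit, had 3.70 and 4.33 ppm in M cells and at most 0.140 ppm elsewhere. Slc16a9 (1.85 and 2.33 ppm in M cells), Slc13a2 (4.91 and 4.85 ppm) and Chrna1, the muscle acetylcholine receptor α subunit (2.30 and 2.29 ppm), were low in M cells and lower in the rest. Cacna1g, a T-type calcium channel, had 0.772 and 1.16 ppm in E, 62.4 and 51.9 ppm in M and 5.72 and 3.75 ppm in RE cells. Atp2b4, a plasma membrane calcium pump, had 1.90 and 6.39 ppm in E, 144 and 161 ppm in M and 22.0 and 20.7 ppm in RE cells. Of the other 333 genes, 42 rose and 36 fell. Slc6a14, an amino acid transporter, fell by 5.65 and Slc6a2, the noradrenaline transporter, fell by 4.91 on the log2 scale. Of the G protein-coupled receptors and regulators, 2 of 125 were members. Gpr123 had 31.67 and 36.99 ppm in M cells and between 0.737 and 1.13 ppm elsewhere, and Rgs16 had 2.44 and 2.80 ppm. Of the other 123, 23 rose and 17 fell, and Rgs2 fell by 4.41 and P2ry2 fell by 2.98 (log2).

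Some members belong to epithelial differentiation. Lce1f, Lce1g and Lce1h, late cornified envelope genes of the epidermis and neighbours on the chromosome, were the 3 members of 54 tested keratin and cornified envelope genes. Lce1f had 6.12 and 8.94 ppm in M cells and at most 0.155 ppm elsewhere. Lce1h had 3.57 and 2.95 ppm, against at most 0.0518 ppm. Lce1g had 1.45 and 0.799 ppm in E, 8.88 and 10.98 ppm in M and 0.171 and 0.348 ppm in RE cells. Within this family sequences are similar, so assignment among copies is uncertain, and their relatives Lce1c, Lce1d, Lce1e, Lce1i and Lce1m were at or under 0.133 ppm in all 6 libraries. Of the other 51 genes of the list, 8 rose and 13 fell, the largest falls being those of Ly6d and Tgm5. Casp14, a caspase of cornifying cells, had 4.05 and 4.65 ppm in M cells, 0.104 and 0.0280 ppm in E and 0.429 and 0.359 ppm in RE cells. Elf5, a transcription factor of mammary alveolar cells, was the 1 member among 42 tested epithelial identity genes, with 2.52 and 2.62 ppm in M cells and at most 0.378 ppm elsewhere. Of the other 41, 1 rose and 26 fell in M cells, with a median log2 fold change of -1.38. Mgat3 fell from 112 and 81.8 to 2.40 and 1.46 ppm and Crb3 from 19.19 and 15.97 to 0.455 and 0.305 ppm.

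The other 4 lists gave 0 members. They were cytokines and chemokines (48 tested), transcription factors of the mesenchymal transition (60), small GTPases and their regulators (167) and enzymes of prostaglandin, nitric oxide and lipid mediators (40). Genes of all 4 lists were called in E vs. M (limma, adjusted p below 0.01), with 5 higher and 11 lower, 11 higher and 14 lower, 20 higher and 13 lower, and 5 higher and 15 lower in that order. The largest changes in each were falls: Tnfsf12 and Cxcl3, Fos and Fosb, Plekhg6 and Arhgef16, and Ptgds and Akr1c18. Fos had 249.3 and 167.1 ppm in E, 12.5 and 11.2 ppm in M and 61.5 and 53.4 ppm in RE cells.

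Over all lists, 1340 tested genes lay outside the set, of which 263 rose and 202 fell in M cells, so that 56.6% of the called genes were higher. On library totals without TMM, which shifts the median of all genes in E vs. M by -0.29 (log2), the counts were 211 and 254, or 45.4% higher. In M vs. RE, 7.92% of all tested genes were called higher and 4.79% lower in RE cells. The listed genes gave 217 higher and 168 lower in RE cells, or 56.4% higher, and 239 and 119, or 66.8% higher, on library totals (median shift of 0.18). Of the listed genes outside the set, 123 both rose with TGFβ1 and fell after its withdrawal without meeting the rule.

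**Figure D3:**
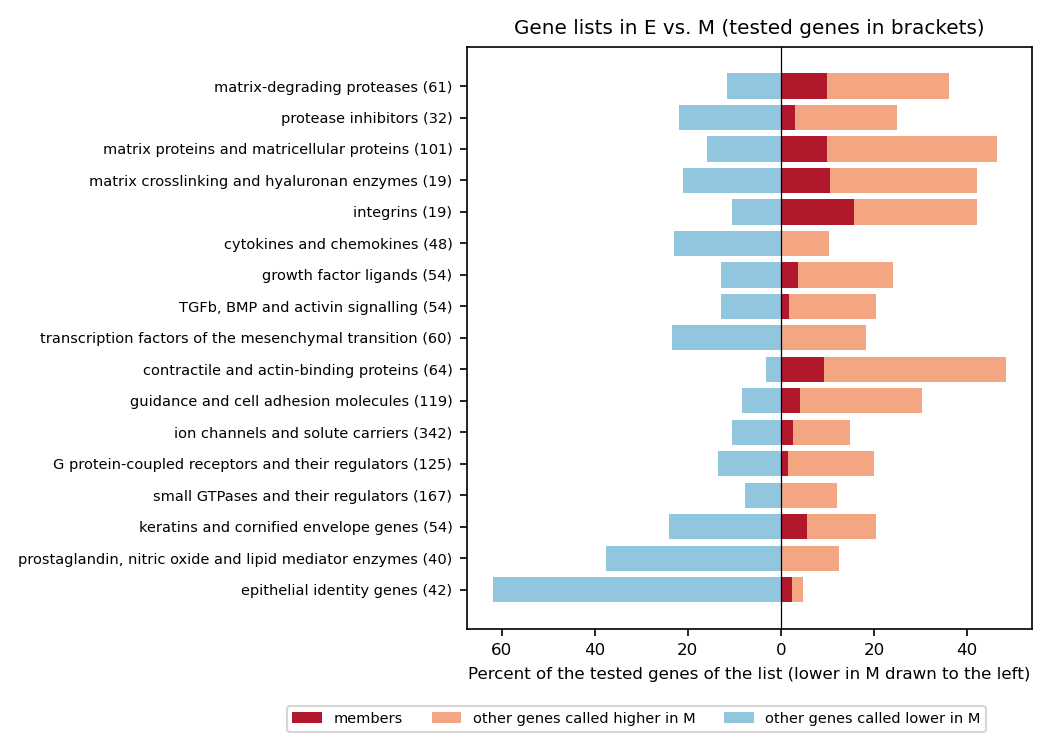
Percent of the tested genes of each of the 17 lists that were members (red), other genes called higher in M (orange) or other genes called lower in M (blue, drawn to the left) in E vs. M by limma. Integrins had the largest share of members, 15.8%, and the epithelial identity genes the largest share of falls, 26 of 42. Members are shown as a count without a test, since the rule chose them on this comparison.

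Among the remaining members, enzymes of steroid and retinoid metabolism were present. Cyp11a1, which starts steroid synthesis, had 2.49 and 1.92 ppm in M cells and was at the floor elsewhere, and Rdh8, a retinol dehydrogenase, had 1.51 and 1.84 ppm. Hsd11b2, which inactivates glucocorticoids, had 2.61 and 2.16 ppm in E, 40.1 and 41.1 ppm in M and 1.13 and 1.51 ppm in RE cells. Hsd11b1, which works in the opposite direction, fell from 19.3 and 10.4 to 2.87 and 3.17 ppm in M cells (log2 fold change of -1.91 ± 0.27, adjusted p of 0.00162, limma). Acsbg1, an acyl-CoA synthetase, had 21.5 and 33.3 ppm in E, 184 and 196 ppm in M and 8.23 and 9.35 ppm in RE cells. Clu, clusterin, a secreted chaperone, had 131 and 106 ppm in E, 1254 and 1228 ppm in M and 153 and 139 ppm in RE cells. The actin-monomer binder Tmsb4x had 8.40 and 6.06, 50.3 and 54.1, and 9.55 and 9.10 ppm.

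The E and RE levels of the members were compared next, since the rule bounded both by M but did not use the difference between them. With values raised to the highest floor, both RE libraries lay above both E libraries in 45 members and below in 20, while 48 were neither, 15 of them at the floor in all 4 libraries. Over all tested genes 29.4% lay above and 37.9% below in the same way. Without raising values to the floor the counts were 53 members (46.9%) above and 24 (21.2%) below, against 29.5% and 38.0% of all tested genes. On TMM-normalized coverage 55 members lay above and 22 below, against 33.7% and 33.3% of all tested genes. Some of these orders lie under the floor, as in Cdh15 and Lce1h. By limma, 15 members (13.3%) were called higher in RE than in E cells, where 5.92% of all tested genes were, and 4 (3.54%) were called lower, where 3.16% were. Members with few reads in E and RE cells entered the test through their M values. 73 members passed the filter on the E and RE libraries alone, and they held the same 15 and 4 calls (20.5% and 5.48%), against 6.09% and 3.25% of the 13519 genes that passed it so. The median log2 fold change was 0.39 over the members and 0.00 over all tested genes. The words "raised only while TGFβ1 is present" thus hold within the rule's factor of 5 and not for every member against its E level. All 113 members were called higher in M cells and lower in RE cells, as the rule required, and made up 9.67% of the 1169 genes called higher in M. Of the other 1056 genes called higher in M, 313 (29.6%) were called higher in RE than in E cells and 15 (1.42%) lower, but these were free of the rule's bound on RE.

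Among the members called higher in RE cells, Has2 was 1.85 ± 0.17 higher (log2, SE, adjusted p of 0.000707, limma), with both RE libraries well above both E libraries. Acta2 was 2.94 ± 0.35 higher (adjusted p of 0.00167). Tmem119 rose from 0 ppm in both E libraries to 0.656 and 0.622 ppm in RE cells (adjusted p of 0.000707), with 7.51 and 8.41 ppm in M. Il2rb (adjusted p of 0.00148) and Actg2 (adjusted p of 0.00386) were likewise at the floor in E cells, and for these 3 genes a fitted fold would depend on the pseudocount. Cacna1g was 2.25 ± 0.29 higher (adjusted p of 0.0022) and Atp2b4 2.65 ± 0.48 (adjusted p of 0.00746). Glipr2, with 2.39 and 2.68 ppm in E, 35.8 and 32.6 ppm in M and 5.90 and 5.67 ppm in RE cells, was 1.24 ± 0.17 higher (adjusted p of 0.00312). Olfm2 was 1.44 ± 0.24 higher, with 0.554 and 0.813 ppm in E, 18.3 and 20.3 ppm in M and 1.97 and 1.82 ppm in RE cells. Tnc was 1.55 ± 0.29 higher (adjusted p of 0.00844). The others were Col27a1, Col5a3, Col4a3, Notch4 and Casp14, with adjusted p between 0.00572 and 0.00964. Several of these calls depended on the settings of the fit. Casp14 lost its call in 11 of 14 other settings, Col4a3 in 10 of 15 and Notch4 in 8 of 15.

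The 4 members called lower in RE cells than in E cells were Mmp10, Col7a1, Siglecg and Acsbg1. Mmp10 was at -2.34 ± 0.26 on the log2 scale (adjusted p of 0.00135, limma), with both RE values far below both E values. Col7a1 was at -1.73 ± 0.17 (adjusted p of 0.000857). Siglecg had 3.82 and 4.47 ppm in E and 0.851 and 1.42 ppm in RE cells, a log2 fold change of -1.73 ± 0.28 (adjusted p of 0.00504), and Acsbg1 was at -1.52 ± 0.22 (adjusted p of 0.00364). Leaving out a library changed the number of calls. Without RE1 or without RE2 the remaining RE library was assumed to vary like the other groups, and no member was called in either direction by limma. Over all genes 9 and 50 calls were left in these fits. Without M1 or without M2, 5 were called higher and 2 lower in both cases, without E1 18 and 6, and without E2 25 and 6. With the M libraries left out of the fit altogether, 2 were called higher and 1 lower. In each of these fits the 19 members kept the direction of their change, and Has2, for example, was 2.01 higher without RE1 and 1.70 higher without RE2 (log2).

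**Figure D4:**
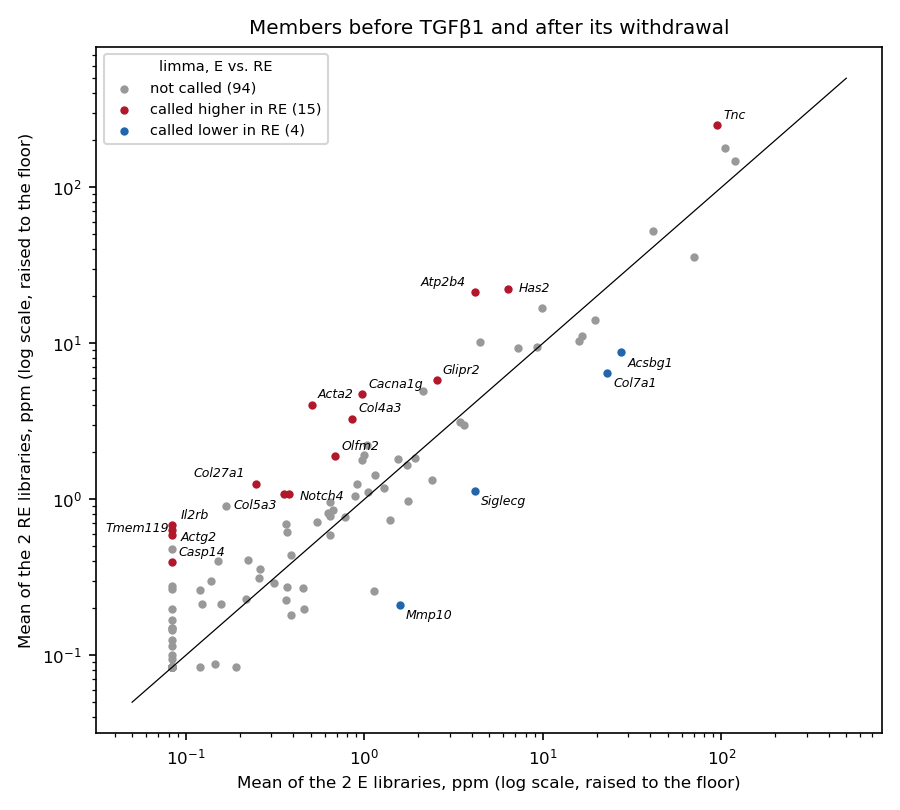
Mean coverage of the 113 members in the 2 E libraries (horizontal) and the 2 RE libraries (vertical), both in ppm on log axes and raised to the floor. The line marks equal values, the 15 red points above it are members called higher in RE and the 4 blue points below it members called lower, while 94 grey points were not called.

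The rule was also read in libraries that had not chosen the genes. Of 130 genes that met it in E1, M1 and RE1 alone, 118 (90.8%) reached the factor of 5 in E2, M2 and RE2, where the median factor was 12.8. Of 149 genes that met it in the number-2 libraries, 123 (82.6%) reached it in the number-1 libraries, with a median of 9.58. In both directions M was the highest library for all the genes chosen. All 113 members are among the genes chosen in each direction, and they were chosen on all 6 libraries. The shares therefore concern the rule and are no separate check of the reported set. All libraries come from 1 line, so this reads the spread between libraries and not between lines.

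At the edge of the rule, Hmcn2 and Dgki were just inside with factors of 5.03 and 5.04, and Jag1 and Myl9 just outside with 4.96 and 4.92. For the level, Havcr2 and Odf3l1 were just inside with 1.01 and 1.02 ppm in the lower M library, and Amtn and Kcnn3 just outside with 0.969 and 0.903 ppm. 22 members had a factor under 6, and 158 genes passed the factor under 1 ppm.

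Several members lie side by side in the genome. In the RefSeq order of tested protein-coding genes, 19 of 110 placed members (17.3%) had another member as the next gene, against 1.57% of the 12650 other genes. The runs were Ass1 and Hmcn2, Atp2b4 and Lax1, Col4a3 and Col4a4, Rdh8, Col5a3 and Olfm2, Cyp11a1 and Sema7a, Fcgr2b and Fcrlb, the 3 Lce1 genes, and Tg, Sla and Wisp1. Sla lies within Tg, and such overlapping models can share coverage. Near-identical neighbours such as the Lce1 genes are not independent. Genes flanking the runs differed in pattern. Freq, next to Hmcn2, rose from 15.6 and 17.1 ppm in E to 31.8 and 31.2 ppm in M cells and fell to 13.5 and 15.1 ppm in RE cells, and Stra6, next to Cyp11a1, rose from 0.207 and 0.443 to 1.35 and 2.92 ppm. Prelp, next to Atp2b4, fell from 4.92 and 5.4 ppm in E to 0.0835 and 0.154 ppm in M cells and rose to 27.6 and 28.3 ppm in RE cells, and Angptl6, next to Rdh8, fell from 22.6 and 36.6 to 0.271 and 0.580 ppm. Of the 198 genes next to a member that were not members themselves, 30 (15.2%) were called higher and 13 lower in M cells, where 8.41% and 8.35% of all tested genes were.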

How the data were processed

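Total RNA of 6 EpH4 libraries (2 each of E, M and RE cells) was sequenced on an Illumina Genome Analyzer. The authors mapped unique reads to the mouse genome (NCBI-m37) with Bowtie and TopHat2 and deposited 1 table of 17428 genes, in which the authors' values behave as coverage (signal), in bases per gene: between 44.8% and 48.4% of values up to 400 are multiples of 50. The summing step, its annotation and the versions are not given in the sources used here. Since these are not read counts, a count test was not used and limma 3.58.1 (R 4.3.3) was fitted to log2(TMM-normalized ppm + 0.1) with a mean trend and all 6 libraries, for the 13893 genes that reached 500 bases in 2 or more libraries, with Benjamini-Hochberg adjustment over all of them. The fold changes therefore lie on a log2(value + 0.1) scale and understate the changes of low genes. Values in ppm are of the library total. TMM was computed without weights (30% and 5% trimmed). All 113 members passed the filter, which their M values alone ensure.

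The members and the 17 gene lists were chosen with earlier results of these data known. Named are the 12 members of highest factor (skipping AC160982.5-1, a predicted gene), the 4 highest of each list, up to 8 members called in each direction in E vs. RE, taken by adjusted p, those at the thresholds and the 2 largest changes outside the set in each list. An item that this covers is not reported here. Symbols were matched to RefSeq for 110 members. RefSeq promoter windows (GRCm38.p6) were searched for motifs. On simulated coverage for E vs. RE with 13555 genes, 87.3% of 197 genes changed by a log2 of 2 were called in the right direction, and 4 unchanged genes were called. The simulated spread was normal on the log scale, and unchanged genes had the same mean in all groups. It held no genes high in M alone, so it does not measure how reliable the calls are for members. Alternatives were scalings, filters, pseudocounts, thresholds, the replicate block, array weights and leaving out each library. Raising values to the floor and filtering on E and RE libraries alone were added after seeing the data, as were TMM-normalized values for the order of E and RE and the rule in the libraries of 1 number. Depth gives the counting error alone, and each group had 2 libraries.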

Additional observations from a re-analysis of the deposited data

How the results depend on the processing

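The number of members was 173 at a factor of 3, 62 at a factor of 10, 271 without a minimum level and 64 with 5 ppm. Leaving out each library gave between 115 and 134. On TMM-normalized coverage 128 genes met the rule. Of the members called in E vs. RE (15 higher and 4 lower), 7 were higher without the filter on low values, 5 with a pseudocount of 1 ppm, 2 with the E and RE libraries alone (1 lower) and 24 at an adjusted p below 0.05. Leaving out each library gave between 0 and 25 higher and between 0 and 6 lower. Has2 and Col7a1 lost their calls in no setting other than those without an RE library, and no call changed direction. For listed genes outside the members, leaving out each library gave between 121 and 337 higher and 101 and 233 lower in E vs. M, and between 113 and 261 higher and 54 and 216 lower in M vs. RE. The causes were not tested.

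The groups share replicate numbers, but same-numbered libraries deviated together with correlations of 0.266 (E and M), 0.0579 (E and RE) and 0.116 (M and RE), so the numbers were not taken as pairs. With the replicate block, 13 members were higher and 4 lower in E vs. RE, and the listed genes gave 269 higher and 204 lower in E vs. M and 220 higher and 171 lower in M vs. RE. Genes under 5 ppm in M cells, 49 of the members, rest on few reads outside M.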
